A study of Mus musculus with 13 samples.

Results

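The intermediate filament genes Krt8, Krt18, Krt19, Krt7, Krt86 and Vim were followed in mouse embryonic stem (ES) cells treated with inhibitors of p38 kinase. Members were the probe sets whose platform annotation gives 1 of these 6 symbols and no other gene, which left 7 of 12588 probe sets on the MG-U74A array and 8 of 12422 on the MG-U74Av2 array. Both arrays together name 8387 genes. The 6 genes were picked with the response of S1 cells to PD169316 in view, so their values in every comparison between treatments are a description. Counts of calls are given for those comparisons, and no p-value is given for a single member.

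S1 ES cells, a line that grows without feeder cells, were sampled 3 days after leukaemia inhibitory factor (LIF) was withdrawn, with 10 µM PD169316, with 10 µM SB203580, or with no inhibitor (control). D4 ES cells, a feeder-dependent line that was passaged without feeders before the experiment, were sampled at the same time with 10 µM PD169316 or as a control. On U74A there were 2 PD169316, 1 SB203580 and 2 control arrays of S1 and 1 PD169316 and 1 control array of D4, and on U74Av2 there were 2 arrays of S1 for each of the 3 conditions. All cells had been grown in 500 pM LIF, and RNA came from adherent cells alone, so detached cells were not measured. The labels do not say that replicates were separate cultures, so the errors below measure the spread between arrays, which may be technical. Precision here is limited by how few arrays each group has. Every signal is the authors' own value, scaled so that each array has a trimmed mean of 300. Changes are read within a probe set and a chip version, and mean signals served only to choose which genes of a list are named. Because the cells were measured in bulk, fewer cells of a type and less RNA per cell cannot be told apart.

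Keratins form filaments as obligate pairs of a type I and a type II chain. Krt8 (type II) and Krt18 (type I) are the pair of simple, single-layered epithelia and the earliest keratins of the embryo, first seen in trophectoderm and in extraembryonic endoderm. Krt19 (type I) and Krt7 (type II) join them in many ductal and simple epithelia, Krt86 is a type II keratin of hair, and Vim encodes vimentin, the filament protein of mesenchymal cells, which pairs with itself. LIF withdrawal allows ES cells to leave the undifferentiated state.

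Krt8 and Krt18 lie next to each other on chromosome 15 with 0 protein-coding genes and 2 non-coding genes between them. Their promoters are shown because the probe sets of this filament pair had closely similar profiles. RefSeq sequences of 300 bases on GRCm38.p6, from 250 bases before to 50 bases after the annotated start, were at hand for 4 of the 6 members. The Krt8 window is chr15:102004293-102004592 on the minus strand and the Krt18 window is chr15:102027966-102028265 on the plus strand, both printed 5′ to 3′ along the gene. Capitals mark matches to the searched motifs on either strand.
Krt8: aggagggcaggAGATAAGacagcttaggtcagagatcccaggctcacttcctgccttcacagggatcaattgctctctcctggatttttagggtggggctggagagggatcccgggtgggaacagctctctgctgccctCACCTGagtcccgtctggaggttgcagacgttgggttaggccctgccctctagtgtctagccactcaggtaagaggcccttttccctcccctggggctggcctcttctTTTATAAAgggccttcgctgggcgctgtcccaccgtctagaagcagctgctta
Krt18: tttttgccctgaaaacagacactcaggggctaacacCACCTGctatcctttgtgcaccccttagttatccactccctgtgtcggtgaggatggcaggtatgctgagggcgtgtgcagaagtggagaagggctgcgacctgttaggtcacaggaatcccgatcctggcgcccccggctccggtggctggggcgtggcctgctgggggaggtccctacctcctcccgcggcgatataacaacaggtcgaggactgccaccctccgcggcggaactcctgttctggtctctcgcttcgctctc

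The motifs searched on both strands were chosen with these sequences in view. TATAAA is a core-promoter element that lies upstream of some starts, and GGGCGG is a core bound by Sp factors. TGANTCA is bound by AP-1 factors, CAGGTG is an E-box that Snail and Zeb repressors can bind, and AGATAAG is bound by the Gata family. The Krt8 window held AGATAAG on its plus strand, CAGGTG on the minus strand, and TATAAA on both strands in overlapping positions at the annotated start. The Krt18 window held CAGGTG on the minus strand and none of the other motifs. Of the other members, the Krt7 window held 4 copies of GGGCGG and 1 of CAGGTG, and the Vim window held 1 TATAAA. Among 32851 promoter windows of the same length, 13.6% held TATAAA, 35.7% GGGCGG, 7.81% TGANTCA, 20.2% CAGGTG and 3.04% AGATAAG. A match is a run of letters and was not tested as a binding site.

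Krt8, the type II chain of the simple epithelial pair, reached the 96.3rd percentile of the probe sets of its array. On U74A, Krt8 (101009_at) read 1193 and 1520.1 in PD169316-treated S1 cells, 319.8 in SB203580-treated cells, and 248 and 827 in S1 controls. On U74Av2 it read 1226 and 848 with PD169316, 534 and 524 with SB203580, and 305 and 134 in controls. The PD169316 arrays were above every control array of their chip version, as were those of 18.7% of all probe sets tested on U74A and 19.8% on U74Av2, a contrast that chose the members. The single SB203580 array of U74A lay inside the control range, whereas both SB203580 arrays of U74Av2 lay above the controls and below the PD169316 arrays. Of all probe sets tested on U74Av2, 15.3% had SB203580 above control and 20.6% had PD169316 above SB203580 without overlap. The share with the full order was not counted. The mean log2 fold change of both chip versions was 1.95 ± 0.34 (SE) for PD169316 over control, or 3.87-fold.

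Krt18, the type I partner of Krt8, followed the same order of conditions. Krt18 (94270_at) read 685 and 1181 on the U74A arrays of PD169316-treated S1 cells, 287 with SB203580, and 281 and 703 in controls. On U74Av2, Krt18 read 445 and 605 with PD169316, 308 and 282 with SB203580, and 166 and 173 in controls. On U74Av2 the PD169316 arrays lay above the SB203580 arrays, and these lay above the controls. Of all probe sets tested there, 19.8% had PD169316 above control, 15.3% SB203580 above control and 20.6% PD169316 above SB203580 without overlap. The share with the full order was not counted. On U74A the lower PD169316 array fell below the higher control. The mean log2 fold change for PD169316 over control was 1.31 ± 0.30 (SE), or 2.49-fold. A further Krt18 probe set, 162191_at, exists on U74Av2 alone and read 1.6 to 59.6 across all 6 arrays, too dim to be tested.

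Krt19, a type I keratin that can replace Krt18 as the partner of Krt8, had the largest log2 fold change of the 4 members tested on both chip versions. Krt19 (92550_at) read 296 and 431 on U74A in PD169316-treated S1 cells, 53.9 with SB203580, and 3.8 and 220.4 in controls. On U74Av2 it read 302 and 178 with PD169316, 28.9 and 83.3 with SB203580, and 44.6 and 6.9 in controls. PD169316 arrays lay above the controls on both chip versions, as for 18.7% of all probe sets on U74A and 19.8% on U74Av2, and SB203580 arrays overlapped them. With signals under 32 set to 32, the mean log2 fold change for PD169316 over control was 2.35 ± 0.57 (SE), or 5.10-fold, which understates a change from controls that lay under that floor. The value turned on the U74A controls and the floor: it was 1.66 (3.15-fold) without U74A control replicate 1, 3.05 (8.27-fold) without U74A control replicate 2, and 1.72 (3.30-fold) with a floor of 64. On U74Av2 the probe set reached a signal of 100 on its PD169316 arrays alone, so it entered the test there through the group in which it was high. The other Krt19 probe set, 102121_f_at, whose suffix marks probes shared by a sequence family, read 20.3 and 50.4 with PD169316 and 4.2 and 14.6 in controls of S1 on U74A, and 13.2 and 119.5 with PD169316 and 4.5 and 11.3 in controls on U74Av2.

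**Figure D1:**
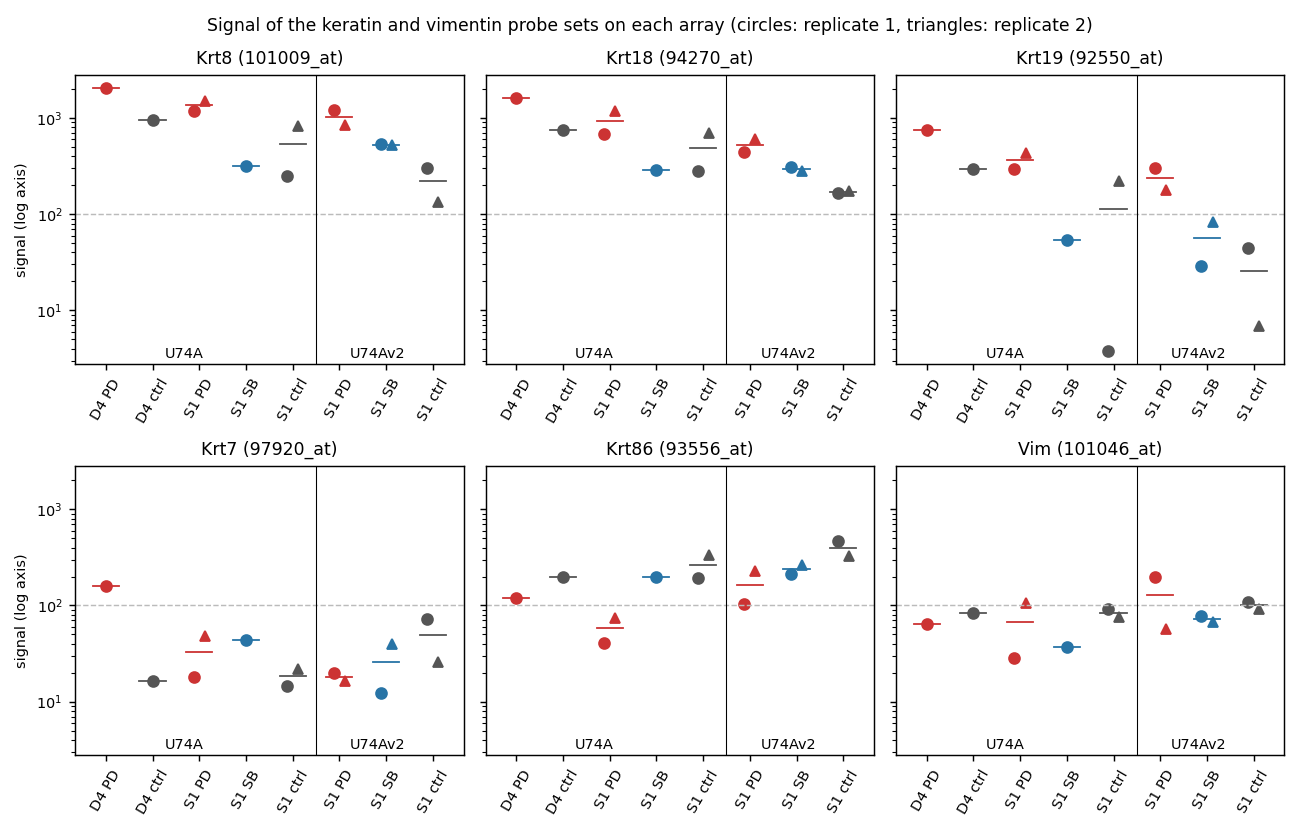
Signal (log axis) of 1 probe set per gene on each array, with U74A left and U74Av2 right of the vertical line in every panel. Circles are replicate 1 (also single arrays), triangles replicate 2, short lines group means, red PD169316, blue SB203580 and grey control, and the dashed line is the signal of 100 used as the filter. Krt8, Krt18 and Krt19 are high with PD169316 in both lines, Krt86 is low with PD169316, and Krt7 and Vim are dim.

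Krt7, a type II keratin of ducts and glands, was at or near background in S1 cells. Krt7 (97920_at) read 18.1 and 47.9 with PD169316, 44.1 with SB203580, and 14.6 and 22.1 in S1 controls on U74A. On U74Av2 it read 19.9 and 16.5 with PD169316, 12.3 and 39.4 with SB203580, and 72.5 and 25.6 in controls. No S1 array reached 100, so the probe set did not pass the filter and was not tested. The order of PD169316 and control differed between chip versions.

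Krt86, a hair keratin, was the member that was lower with PD169316. Krt86 (93556_at) read 41.2 and 74.3 in PD169316-treated S1 cells, 196 with SB203580, and 195 and 333 in controls on U74A. On U74Av2 it read 103 and 228 with PD169316, 211 and 267 with SB203580, and 467 and 327 in controls. PD169316 arrays lay below all controls on both chip versions, as did 14.7% of all probe sets tested on U74A and 18% on U74Av2. The SB203580 arrays lay below the controls on U74Av2 only, as did 20% of all probe sets tested there. The mean log2 fold change for PD169316 over control was -1.78 ± 0.38 (SE), which is a signal 3.43-fold lower.

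The hair keratins Krt81 and Krt83 are close relatives of Krt86, and whether their transcripts contribute to its probe set was not tested. Krt83 (93555_at) read 9.7 to 28.2 on U74A and 14.2 to 26.3 on U74Av2, under the floor on all arrays. Krt81 (96782_at) read 47.3 and 89.4 with PD169316, 69.0 with SB203580, and 268 and 198 in S1 controls on U74A. On U74Av2, Krt81 read 269 and 222 with PD169316, 337 and 525 with SB203580, and 468 and 347 in controls. As for Krt86, its PD169316 arrays lay below all S1 controls on both chip versions, as did 14.7% of all probe sets tested on U74A and 18% on U74Av2. The mean log2 fold change of Krt81 was -1.27 ± 0.38 (SE) and did not pass the test. In D4, Krt81 read 64.7 with PD169316 and 40.0 in the control, opposite in direction to Krt86. Further Krt81 probe sets of U74Av2 (161174_i_at, 161175_r_at and 162375_i_at) read 1.0 to 91.3, and their PD169316 arrays overlapped the controls.

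Vim, the mesenchymal filament gene, was dim and showed no common direction. Vim (101046_at) read 28.6 and 106.5 with PD169316, 36.7 with SB203580, and 92.0 and 76.1 in S1 controls on U74A, where it did not pass the filter. On U74Av2 it read 200 and 56.5 with PD169316, 78.6 and 66.8 with SB203580, and 110 and 92.6 in controls. The PD169316 arrays lay on both sides of the controls on each chip version, while every SB203580 array lay below the controls, as did 32.6% of all probe sets tested on U74A with its single SB203580 array and 20% on U74Av2. On U74Av2, where Vim was tested, the log2 fold change for PD169316 over control was 0.08, with a 95% confidence interval from -1.44 to 1.59.

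A probe set was called where limma's adjusted p of the combined test was under 0.05. For PD169316 over control in S1, 4 of the 4 members tested on both chip versions were called, Krt8, Krt18 and Krt19 as higher and Krt86 as lower, where 1.88% of all 5369 probe sets tested were called (1.38% higher and 0.503% lower). Within a single chip version 0 members were called, of 4 tested on U74A, where 0.0176% of all were called, and of 5 tested on U74Av2, where 0.128% were called. An unadjusted limma p under 0.05 was found for 3 members on U74A, where 4.65% of all probe sets had one, and for 4 on U74Av2, where 8.35% had. On U74Av2 the count of members called was 3 with hybridization day as a block, where 2.27% of all were called, and 2 with a replicate block, where 0.752% were. The contrast chose the members, so nothing is read from these shares. The combined test takes the tables of the chip versions to be independent. The count of 4 was 0 when the correlation of 0.43 between their z scores was allowed for, where 12 of all 5369 probe sets were called. That correlation was taken over all 5369 probe sets, so changes shared by both chip versions enter it as well as shared error. The data do not separate these parts. The count was 0 without limma's intensity trend (31 of all 5369), 0 without the signal filter (1 of all 9977) and 0 with 1 ratio per hybridization day (0 of all 5369). With 1 array left out the count of members called stayed or fell. Such a fit leaves 1 array in a group, so log2 fold changes alone are given here. They ranged from 1.52 to 2.39 for Krt8, 0.98 to 1.65 for Krt18, 1.66 to 3.05 for Krt19 and -2.06 to -1.49 for Krt86. When either U74Av2 PD169316 array was left out, Krt19 did not pass the filter.

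The experiment files give 5 hybridization days, and each S1 PD169316 array had a control array of the same chip version and day, which gives 4 pairs. The PD169316 to control log2 ratio of Krt8 was 2.27 and 0.88 in the U74A pairs and 2.01 and 2.66 in the U74Av2 pairs. Krt18 gave 1.29, 0.75, 1.42 and 1.80 in the same pairs, and Krt19 gave 3.21, 0.97, 2.76 and 2.47. For all 3 keratins the smallest of the 4 ratios came from U74A replicate 2, whose control array had the higher signals of these keratins on U74A. Krt86 gave -2.24, -2.16, -2.18 and -0.52, so its smallest change came from U74Av2 replicate 2. Of all 5369 probe sets, 12.6% were higher and 10.6% were lower in all 4 pairs.

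**Figure D2:**
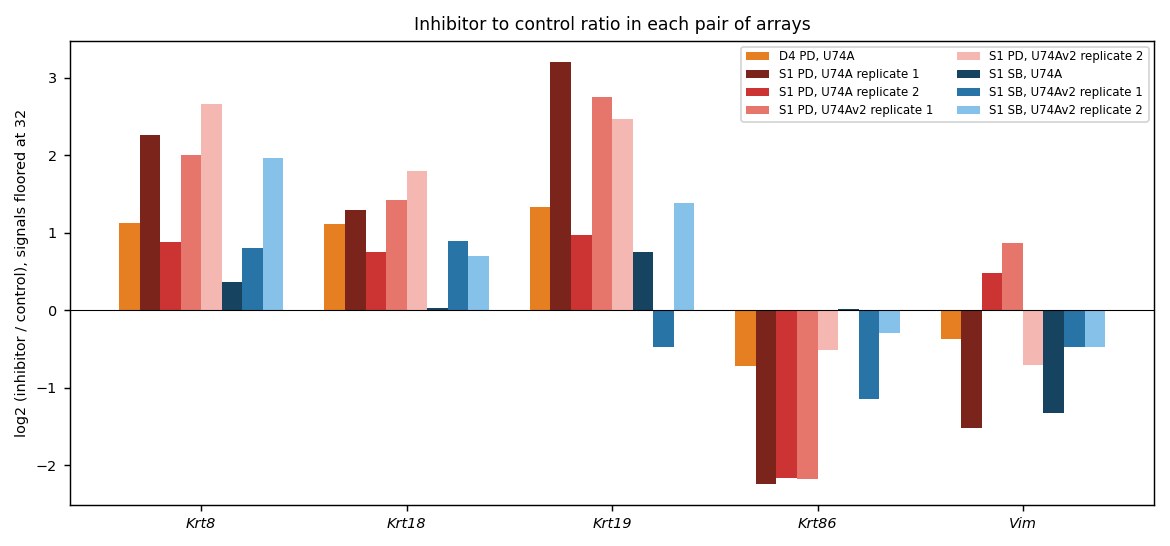
Bars give the log2 ratio of inhibitor to control signal (floored at 32) in each pair of arrays, orange for D4, reds for PD169316 in S1 and blues for SB203580 in S1. Krt8, Krt18 and Krt19 are above 0 in the D4 pair and in all 4 PD169316 pairs of S1, Krt86 is below 0 in all of them, and Vim lies on both sides of 0.

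Arrays of both chip versions were hybridized on day 3, and the labels do not say whether they carried the same RNA. After removal of each table's probe set means, the day 3 arrays of like treatment correlated across tables at 0.36 for PD169316, 0.23 for SB203580 and 0.23 for control over 5369 probe sets, which are not independent replicates. The day 3 S1 controls also had the highest 3′ to 5′ signal ratios of Actb, 3.31 on U74A and 3.21 on U74Av2, where the other 11 arrays had 1.46 to 2.25. Krt8 was lower on the day 3 control than on the other S1 control on U74A (248 and 827) and higher on U74Av2 (305 and 134). Without these controls, which leaves 1 control array per chip version, fewer members and fewer probe sets in all were called for PD169316 over control. The log2 fold change of Krt19 was then 1.77. The part of RNA quality in the result was not tested.

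SB203580 over control shares its control arrays with the PD169316 comparison, and 0 of 4 members were called, as were 0% of all 5369 probe sets, with 0 members and 249 probe sets (4.64%) at an unadjusted limma p under 0.05. On U74Av2 the log2 fold changes were 1.39 for Krt8, with a 95% confidence interval from 0.53 to 2.25, and 0.80 for Krt18, from 0.09 to 1.50. On U74A, with its single SB203580 array, the same quantities were -0.50 for Krt8, from -2.03 to 1.03, and -0.63 for Krt18, from -2.06 to 0.80. The sign for this pair thus differed between chip versions. On U74Av2 alone 2 of 5 members had an unadjusted limma p under 0.05, as did 335 of all 7050 probe sets, and 0 were called. The shared control arrays helped to choose the members, so the intervals are a description and no test. On U74Av2 the SB203580 arrays lay wholly above the controls for Krt8 and Krt18, as did 15.3% of all probe sets tested there. They lay wholly below the controls for Krt86 and Vim, as did 20% of all probe sets tested there. Set against the control of the same replicate number, or on U74A against the control of the same day, Krt8 gave SB203580 to control log2 ratios of 0.37, 0.81 and 1.97, all above 0. Krt18 gave 0.03, 0.89 and 0.70, Krt19 gave 0.75, -0.48 and 1.38, and Krt86 gave 0.01, -1.15 and -0.29. On U74A the same-day control is the dimmer of the S1 controls for Krt8, Krt18 and Krt19, and the fit above uses both.

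PD169316 and SB203580 share a pyridinyl imidazole core and differ on the phenyl ring at position 2 of the imidazole, which carries a para-nitro group in PD169316 and a para-methylsulfinyl group in SB203580. They are the only pair of inhibitors here, and both were used at 10 µM for 3 days. PD169316 arrays read higher than all SB203580 arrays of their chip version for Krt8, Krt18 and Krt19, as did 37.8% of all probe sets tested on U74A with its single SB203580 array and 20.6% on U74Av2. The log2 difference, PD169316 over SB203580, of Krt8 was 2.07 on U74A, with a 95% confidence interval from 0.55 to 3.60, and 0.95 on U74Av2, from 0.09 to 1.80. For Krt18 it was 1.65 on U74A, from 0.22 to 3.08, and 0.81 on U74Av2, from 0.11 to 1.52. For Krt19 it was 2.73 on U74A, from 0.28 to 5.17, and 2.17 on U74Av2, from 0.53 to 3.80. The intervals describe PD169316 arrays whose values chose the members, and Krt19 passed the filter on U74Av2 through those arrays, so they are no test of the difference.

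The corresponding differences of Krt86 were -1.83 on U74A, from -3.57 to -0.08, and -0.63 on U74Av2, from -1.57 to 0.30, so the U74Av2 interval included 0. Vim, tested on U74Av2 alone, gave 0.55, from -0.96 to 2.06. In the combined test 0 of 4 members passed, where 0.689% of all 5369 probe sets did, and all 4 members had an unadjusted limma p under 0.05, as did 576 probe sets in all (10.7%). A missed threshold does not show that the compounds act alike on these genes. The count of members was 2 with hybridization day as a block, where 129 of all 5369 probe sets were called. It also rose in some fits with control arrays left out, which leave 1 array in a group, so effect sizes alone are given. With 1 array left out the log2 difference ranged from 1.38 to 1.64 for Krt8 and from 1.04 to 1.43 for Krt18. The range was 2.10 to 2.79 for Krt19 and -1.52 to -0.94 for Krt86.

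**Figure D3:**
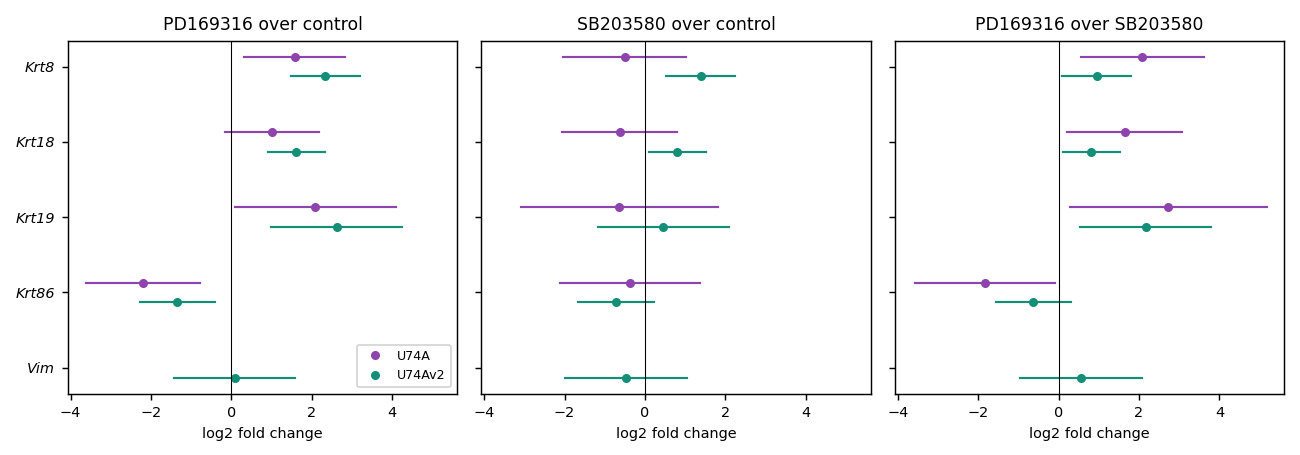
Log2 fold change with its 95% confidence interval for each tested member, by chip version (purple U74A, green U74Av2), for PD169316 over control, SB203580 over control and PD169316 over SB203580 in S1. Krt8, Krt18 and Krt19 lie above 0 for PD169316 over SB203580 on both chip versions, and for SB203580 over control the U74A and U74Av2 estimates of these genes have opposite signs.

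D4 cells were measured on 1 PD169316 and 1 control array, so the treatment has no replicate check in this line. In D4, Krt8 read 2070 with PD169316 and 948 in the control, a log2 ratio of 1.13. Krt18 read 1626 with PD169316 and 749 in the control (log2 ratio 1.12), and Krt19 (92550_at) read 748 and 296 in the same order (1.34). All 3 were thus more than 2-fold higher with PD169316, as were 10.8% of the 6219 probe sets tested on these arrays. Krt86 read 121 with PD169316 and 200 in the control (-0.73), and Vim read 64.3 and 83.4 (-0.38). The family probe set of Krt19, 102121_f_at, did not follow 92550_at and read 105 with PD169316 and 133 in the control (-0.34).

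Krt7 was read at 159 on the D4 PD169316 array and at 16.3 on the D4 control. That was its only value of at least 100 on any of the 13 arrays. Its log2 ratio of 2.31 rests on the floor of 32 for the control, and it was 3.29 with a floor of 16 and 1.31 with a floor of 64. The 2 S1 PD169316 arrays of the same chip version read 18.1 and 47.9.

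The level in D4 compared with S1 did not choose the members and was tested on U74A, in a fit that shares the S1 PD169316 and control arrays and holds PD169316 as a term. The D4 over S1 log2 difference was 0.84 ± 0.40 (SE) for Krt8 and 0.80 ± 0.38 for Krt18, each with a limma adjusted p of 0.78. It was 1.44 ± 0.63 for Krt19 (92550_at, limma adjusted p = 0.78), 1.72 ± 0.83 for Krt19 (102121_f_at, limma adjusted p = 0.78), which passed the filter through the D4 arrays alone, and 0.39 ± 0.58 for Krt86 (limma adjusted p = 0.96). Of 5 member probe sets 0 passed, as did 0% of all 6219 tested, with 1 member and 392 probe sets (6.3%) at an unadjusted p under 0.05. The D4 control read above both S1 controls for Krt8, Krt18 and both Krt19 probe sets, as for 37% of all. The D4 arrays were hybridized on a day of their own, so line and day cannot be told apart, and they share a chip lot with replicate 2 of the S1 control and PD169316 groups. Against the S1 arrays of that lot alone the Krt8 difference was 0.32 and that of Krt18 was 0.28.

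The PD169316 effect in D4 minus that in S1 was -0.44 on the log2 scale for Krt8, with a 95% confidence interval from -2.55 to 1.66, and 0.10 for Krt18, from -1.86 to 2.06. It was -0.75 for Krt19 (92550_at), from -3.97 to 2.47, and 1.48 for Krt86, from -1.02 to 3.97. No probe set passed limma's threshold for this difference (149 of 6219 had an unadjusted p under 0.05), and intervals of this width do not show that the lines responded alike.

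Over all 13 arrays the members fell into distinct profiles when each log2 signal was set against the mean of the S1 controls of its chip version. The root mean square difference between profiles was 0.56 for Krt8 and Krt18, 0.67 for Krt8 and Krt19, and 0.90 for Krt18 and Krt19. It was 1.72 for Krt8 and Vim, 1.13 for Krt86 and Vim, 2.47 for Krt8 and Krt86, and 2.75 for Krt19 and Krt86, the largest of the 10 pairs. Among the 5368 other probe sets tested on both chip versions, Krt18 ranked 3 and Krt19 ranked 10 in closeness to Krt8. All profiles share the same arrays and scaling, so closeness is a description.

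Outside the members, the probe sets closest to Krt8 were those of Wfdc2 (difference 0.54), which encodes a secreted whey acidic protein family member of epithelia, B2m (0.55), the light chain of MHC class I, Col4a1 (0.57), a basement membrane collagen, Cyba (0.57), a subunit of NADPH oxidase, and 2610001J05Rik (0.57). Wfdc2 (96643_at) read 522 and 851 with PD169316, 194 with SB203580, and 141 and 263 in S1 controls on U74A. On U74Av2, Wfdc2 read 571 and 602 with PD169316, 267 and 222 with SB203580, and 109 and 180 in controls. It thus shared with Krt8 and Krt18 on U74Av2 the order PD169316, SB203580, control, without overlap. Wfdc2 was picked for its closeness to Krt8 on these same arrays, so nothing is read from the shared order.

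The probe sets closest to Krt86 were Pfkl (0.37) and Ldha (0.42), which encode the liver-type phosphofructokinase and lactate dehydrogenase A of glycolysis, and Aire (0.38), a transcription regulator known from the thymus. Pfkl (92637_at) read 516 and 1456 with PD169316, 1550 with SB203580, and 3200 and 4570 in S1 controls on U74A. Both inhibitors thus lay below the controls there, whereas the SB203580 array of Krt86 lay inside its control range. On U74Av2, Pfkl read 867 and 2222 with PD169316, 1990 and 3248 with SB203580, and 3194 and 4273 in controls. Vim was not tested on both chip versions, so no genes were ranked against it.

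Lists of related genes were described next to the members by their calls and their median log2 fold change for PD169316 over control in S1, beside a median of 0.03 over all 5369 tested probe sets. These calls come from the combined test, and the adjusted p with the estimated correlation of 0.43 between chip versions is given where it ends a call. Of 37 other keratins listed, which include those of skin, hair and stratified epithelia, 25 had a probe set and 7 were tested. Among these, 0 were called higher and 0 lower, with 1 at an unadjusted limma p under 0.05, and the median was -0.19. Named by mean signal on U74Av2, they were Krt81, given above, and Krt4 (0.43 ± 0.41), Krt6a (0.04 ± 0.33) and Krt6b (-0.56 ± 0.37), keratins of stratified or stressed epithelia (log2 fold change ± SE).

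Of other intermediate filament genes 5 were tested, 1 was called higher and 0 lower, and the median was -0.10. Nes, the nestin of neural progenitors, rose by 1.37 ± 0.28 on the log2 scale (limma adjusted p = 0.13 with the estimated correlation). Of the genes of desmosomes and filament linkers, which anchor keratin to junctions, 9 were tested and 0 were called in either direction, with 2 at an unadjusted limma p under 0.05 and a median of 0.33. Those 2 were Dsp (1.11 ± 0.38) and Plec (0.87 ± 0.35), and 8 of the 9 were above 0, beside 52.7% of all 5369 probe sets. Named by mean signal on U74Av2 were Macf1 (0.33 ± 0.27), a crosslinker of actin and microtubules, and Ndel1 (0.05 ± 0.27), a dynein regulator. So were Pkp2 (0.01 ± 0.23) and Pkp4 (0.08 ± 0.24), plakophilins of cell junctions.

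Epithelial genes outside the keratins gave 2 calls higher and 0 lower of 13 tested, with a median of 0.12. Perp, a desmosome-associated membrane protein, rose by 1.57 ± 0.34 and Cd24a, a surface glycoprotein, by 1.18 ± 0.22 on the log2 scale. With the estimated correlation the limma adjusted p was 0.17 for Perp and 0.083 for Cd24a. Of 5 mesenchymal genes tested 2 were called higher and 0 lower, with a median of 0.91. They were Tagln, the actin-binding transgelin of smooth muscle, at 2.66 ± 0.28 and Sparc, a matrix glycoprotein also made by parietal endoderm, at 1.63 ± 0.29. With the estimated correlation the call of Tagln held and that of Sparc did not (limma adjusted p = 0.072). Among transcription factors known to act on keratin genes, 3 of 13 tested were called higher and 0 lower, with a median of 0.80. Tfap2c (AP-2 gamma) rose by 1.42 ± 0.31, Klf6 (a zinc finger factor) by 1.45 ± 0.31 and Jund (an AP-1 subunit) by 0.80 ± 0.19. None of these calls held with the estimated correlation, where the limma adjusted p was 0.15 for Tfap2c and Klf6 and 0.23 for Jund.

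For PD169316 over SB203580 the combined test called Cldn4, a tight junction claudin, at 1.63 ± 0.38, Tfap2c at 1.93 ± 0.35 and Sparc at 1.44 ± 0.32 among the epithelial, regulator and mesenchymal lists, all higher. With the correlation estimated for this comparison their limma adjusted p was 0.31, 0.11 and 0.34 in the same order. For SB203580 over control 0 genes of any list were called.

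A list of actin cytoskeleton genes and of annexins, S100 proteins and a galectin had 8 of 18 tested genes called higher and 1 lower for PD169316 over control, with a median of 0.85. Of the 8, Acta1, Actn1 and Tmsb4x encode actin or proteins that bind it, and S100a6, Anxa1, Anxa2, Anxa3 and Lgals1 belong to the other families. With the estimated correlation 6 of the 8 held, and Anxa1 (limma adjusted p = 0.11), Anxa2 (0.18) and the lower call of Actb (0.23) did not. The called genes with the largest changes were S100a6 (3.67 ± 0.33), a calcium-binding protein, Anxa1 (2.91 ± 0.55) and Anxa3 (2.83 ± 0.40), annexins that bind membranes, Lgals1 (2.87 ± 0.31), a galectin, Acta1 (2.86 ± 0.41), skeletal actin, Tmsb4x (2.32 ± 0.30), which binds actin monomers, and Anxa2 (2.05 ± 0.56). The gene called lower was Actb, by the probe set 101578_f_at (-1.35 ± 0.30).

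**Figure D4:**
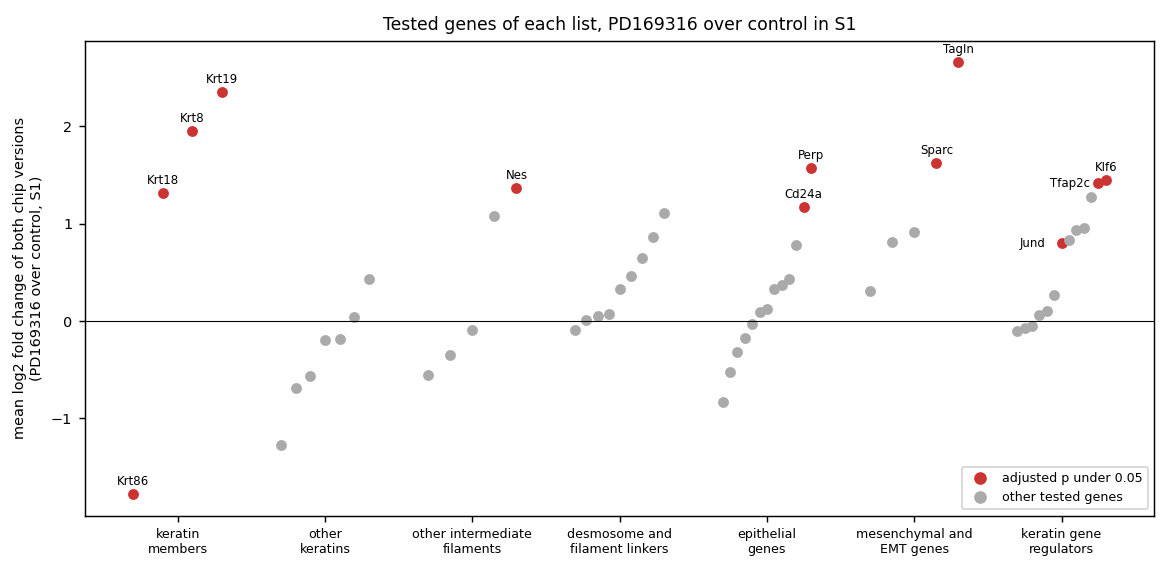
Each point is a tested gene, placed by its mean log2 fold change of both chip versions for PD169316 over control in S1 and grouped by list. Red points passed the limma adjusted p of 0.05 and are named; among other keratins and filament linkers no gene passed.

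The labelled cell type was checked against markers. Of 15 ES cell markers, 10 to 11 reached a signal of 100 on each U74A array and 12 to 13 on each U74Av2 array, and on U74A Nanog and Dppa5a were listed at 0 on all arrays. Pou5f1, the Oct4 gene that defines pluripotent cells, read 3450 to 6606 on U74A and 4130 to 9165 on U74Av2. The summed signal of the list was 14637 to 16675 with PD169316, 23663 with SB203580 and 20868 to 27258 in S1 controls on U74A, and 30429 to 33902, 31855 to 35512 and 46110 to 46494 in the same order on U74Av2. Of 10 markers tested 5 were called lower with PD169316, among them Lefty1 (-1.99 ± 0.36), a Nodal antagonist, and 1 higher, Tfcp2l1 (1.34 ± 0.30), a pluripotency factor. None of these 6 calls held with the estimated correlation, where the limma adjusted p was 0.052 for Lefty1 and 0.18 for Tfcp2l1. Their part in the keratin result was not tested.

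Markers of extraembryonic endoderm, where Krt8 and Krt18 are abundant, were measured on 19 probe sets. Their summed signal was 7181 to 8504 with PD169316, 3918 with SB203580 and 2929 to 10457 in S1 controls on U74A, and 9187 to 9702, 4121 to 6048 and 3730 to 4147 in the same order on U74Av2. The upper value of the U74A controls came from replicate 2, the control with the high keratin signals. Apoe had the highest signal of the list, 1220 to 6849 over all U74A arrays and 808 to 6077 on U74Av2, so it weighs heavily in these sums. On that replicate 2 control Col4a1 read 416, below its 891 and 1047 with PD169316 in S1 on U74A. Between 7 and 12 of the 19 markers reached 100 on an array. Of 8 tested, 3 were called higher with PD169316, Col4a1 (1.71 ± 0.29), Col4a2 (1.25 ± 0.29) and Sparc, which encode matrix proteins. With the estimated correlation their limma adjusted p was 0.064, 0.20 and 0.072 in the same order. Of the transcription factors of the list, Gata4 reached 100 on 3 arrays of U74A and 4 of U74Av2, Gata6 on 1 of each, Sox7 on 3 and 1, Sox17 on 2 and 3, Foxa2 on 1 and 0, and Hnf4a on 0 of either. Sox7 (92487_at) read 155.6 and 225.8 with PD169316, 66.9 with SB203580 and 64.3 and 59.0 in S1 controls on U74A, and 127 and 90.3 with PD169316, 94.7 and 62.5 with SB203580 and 45.5 and 58.6 in controls on U74Av2. Its PD169316 arrays thus lay above the S1 controls on both chip versions, as did 18.7% of all probe sets tested on U74A and 19.8% on U74Av2. Sox7 did not pass the filter on U74Av2, and it was named after its values were seen. Gata4 (102713_at) read 346.4 and 34.4 with PD169316, 112 with SB203580 and 25.3 and 42.6 in S1 controls on U74A, and 86.3 and 147.4 with PD169316, 24.7 and 141.9 with SB203580 and 316.4 and 165.9 in controls on U74Av2, with no common order. Their part in the keratin result was not tested.

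Of 10 trophoblast markers measured, 2 to 4 reached 100 on each S1 array of U74A and 2 to 7 on U74Av2. Their summed signal was 1404 to 1575 with PD169316, 669 with SB203580 and 514 to 972 in S1 controls on U74A, and 1261 to 2057, 776 to 789 and 944 to 1421 in the same order on U74Av2. Of 4 tested, 1 was called higher, Tfap2c, a call that did not hold with the estimated correlation, as given above. Tfap2c also had the highest signal of the list, up to 767 on U74A and 1009 on U74Av2, so it weighs heavily in these sums. Of the transcription factors of the list beside it, Ascl2 reached 100 on 3 arrays of U74A and 4 of U74Av2, Hand1 on 4 of each, Eomes on 1 of each and Esx1 on 1 of each. Gata3 reached 100 on 0 arrays, Cdx2 on 2 arrays of each chip version and Elf5 on 1 array of U74Av2. Their part in the keratin result was not tested.

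Fibroblast markers, which would mark left-over feeder cells in D4, were measured on 16 probe sets, and 6 to 7 of them reached 100 in D4 against 3 to 7 in S1 on U74A. Their summed signal was 1650 and 1699 in D4 and 819 to 1676 in S1 on U74A. Of 7 tested between the lines 0 were called, with a median D4 over S1 log2 difference of 0.63 beside 0.06 over all 6219 probe sets. In S1, 0 of 4 tested were called with PD169316, with a median of -0.49. Their part in the levels of D4 was not tested.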

How the data were processed

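Per the labels, each deposited value is the intensity of 1 probe set on 1 array, obtained by the authors from Microarray Suite 5.0 with global scaling (trimmed mean target 300). Each table was analysed alone. Control probe sets (66 per table) were left out, and gene symbols came from the platform table. On U74A 10276 had 1 symbol, 363 several and 1949 none, and on U74Av2 10833, 396 and 1193 did; 0 symbols needed an update, and probe sets with several symbols were not named.

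Signals under 32 were set to 32 and log2-transformed. A fit kept the probe sets that reached a signal of 100 on 2 or more of its arrays. The two-sided tests used limma 3.58.1 under R 4.3.3 (lmFit, contrasts.fit and eBayes, its prior variance following mean intensity). P-values were adjusted by Benjamini and Hochberg's method across every probe set tested, at a threshold of 0.05. All S1 arrays of a table gave 1 estimate of spread, and for a group of 1 array that spread was assumed to hold. For probe sets tested on both chip versions the sum of both z scores over √2 was tested, and log2 fold changes were averaged. D4 and S1 were compared on the 6 U74A arrays without SB203580. The fit was tested on simulated data with separate noise for each table, so that check does not cover dependence between the chip versions.

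The members and the 11 gene lists were chosen with earlier results of these data known. Every member probe set was described. Of each list, up to 8 called genes by size of change were named, or otherwise up to 4 by mean signal, and the nearest profiles were the 5 closest to Krt8 and the 3 closest to Krt86. Within a list, each gene stands for its probe set of highest mean signal. Krt81, Krt83, Dsp, Plec, Apoe and the transcription factors among the markers were added after their values were seen. Alternatives were quantile normalization, other filters, floors, offsets and spread models, blocks for replicate number and hybridization day, arrays left out in turn, and other ways to combine the chip versions.

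Same-numbered arrays correlated at 0.21 on U74A and at 0.08 to 0.18 on U74Av2 in their deviations from the group means, with 2 numbers per chip version, and the labels do not say that a number marks a shared culture, so they were not treated as pairs.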

Additional observations from a re-analysis of the deposited data

How the results depend on the processing

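The 4 calls among the members for PD169316 over control stayed at 4 under quantile normalization, floors of 16 and 64, an offset of 32, a replicate block and a hybridization day block. The count was 2 with a minimum signal of 200, where 2 members were tested, and 0 without a signal filter, where 7 were. It was 0 without the intensity trend, 0 with the correlation of z scores allowed for and 0 with 1 ratio per hybridization day. With 1 array left out it ranged from 1 to 4, and it was 1 without the day 3 controls, an alternative chosen after seeing the data. Calls among all probe sets moved over 1.5 times, from the 101 reported: 254 with the hybridization day block, 199 with the replicate block, 1 without a filter, 31 without the trend, 12 with the z correlation allowed for, 0 with 1 ratio per day, 30 without the day 3 controls, and 24 to 164 with 1 array left out. The log2 differences of Krt8, Krt18, Krt19 and Krt86 for PD169316 kept their sign under every alternative that gave one. For PD169316 over SB203580, 0 member calls became 1 with a floor of 64, where 36 of all 5369 probe sets were called. They became 2 with a day block, where 129 of all 5369 were called. The number of member calls also changed in some fits with arrays left out, which leave 1 array in a group. For SB203580 over control and for D4 over S1, 0 members were called under every alternative run. With 1 ratio per day, SB203580 over control was 1.28 for Krt8, 0.76 for Krt19 and 0.58 for Krt18. The D4 over S1 difference of Krt86 was -0.020 against S1 arrays of the D4 chip lot alone, an alternative added later. A hybridization day block was not run for D4 over S1, since D4 has a day of its own. Averaging all probe sets of a gene gave 1.21 for Krt19 on U74A, 1.78 for Krt19 and 1.03 for Krt18 on U74Av2, which is lower because dim probe sets at the floor enter the mean. Other causes were not tested. The SB203580 comparisons were not run with a replicate block in the combined test, since the U74A SB203580 array carries no number, and PD169316 over SB203580 was not run with 1 ratio per day. Signals near the floor limit what can be said of Krt7, Vim and Krt19 in controls.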
